A study of Bos taurus and Sus scrofa with 6 samples.

Results

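The stromal and peritubular myoid cells of the pig testis numbered 996 of 9457 cells called in 3 pig libraries, out of 27966 called in the pig and cattle libraries of the series. They were chosen by genes. A barcode whose UMI total passed the cell minimum of its library was kept when TCF21, PDGFRA, DCN, LUM, ACTA2, MYH11, TAGLN and CNN1 together held at least 4 UMIs over at least 3 of these 8 genes. It was dropped when at least 2 genes of any of 4 lists had a UMI, namely the germ cell genes DDX4, DAZL, MAEL and TDRD1, the Sertoli cell genes FSHR, AMH and CLDN11, the Leydig cell genes CYP17A1, CYP11A1 and STAR, and the endothelial genes PECAM1, CDH5 and KDR. A UMI, or unique molecular identifier, marks 1 captured RNA molecule. The pig gene table carries no symbol for MYH11 and DAZL, so 7 keep genes and 12 drop genes were measured.

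Testes of 3 mixed breed pigs aged 3 months and 3 Holstein cattle aged 4.5 months were digested into suspensions of total testicular cells without sorting, and droplet libraries were made, 1 for each animal. Pig 2 and pig 3 carry the same testis number in their labels beside different tags, as do cattle 2 and cattle 3, and each library was taken as 1 animal because the tags differ. No animal was treated and all were castrated before puberty, so the cells stand for 1 age of each species. About 8000 live cells were loaded for each library, while the pig files list 6220, 22920 and 8808 barcodes with 6245189, 40099873 and 33500750 UMIs for pig 1, 2 and 3.

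Peritubular myoid cells form the flat contractile layer around each seminiferous tubule. They move tubule fluid, build the tubule's basement membrane together with Sertoli cells and secrete factors that act on spermatogonial stem cells. Interstitial stromal cells lie between the tubules, make collagen and proteoglycans, and in the mouse those that express the transcription factor TCF21 can give rise to myoid and Leydig cells.

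Few cells of pig 1 belonged to this population. The rule found 46 of 3248 cells in pig 1, 631 of 3932 in pig 2 and 319 of 2277 in pig 3. These were shares of 1.42% (exact 95% binomial interval 1.04% to 1.88%), 16.05% (14.9% to 17.2%) and 14.0% (12.6% to 15.5%), with a mean of 10.5% ± 7.92 (SD, n = 3). Pig 1 lay far below the other pigs, whose intervals overlap. Such intervals cover counting error only. The cell minimum was 696, 2444 and 3457 UMIs in pig 1, 2 and 3, and the chosen cells had a median of 897.5, 3323 and 4462 UMIs against 895, 3978 and 6340 in all other called cells. A threshold of 4 UMIs is harder to reach in the shallow library, and its part in the low share of pig 1 was not tested. The same rule chose 23.2%, 37.8% and 48.0% of called cells in the cattle libraries, 7112 of 18509 cells, where MYH11 and DAZL were measured and CDH5 had no symbol. With 500 UMIs as the minimum in every library, the shares were 2.09%, 22.6% and 30.1% in pig 1, 2 and 3. They were then 24.2%, 32.5% and 32.6% in cattle 1, 2 and 3, so that pig 3 exceeded cattle 1. Species, age, breed, gene tables, the software and filtering of the files and the cell minimum cannot be told apart in this difference.

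**Figure D1:**
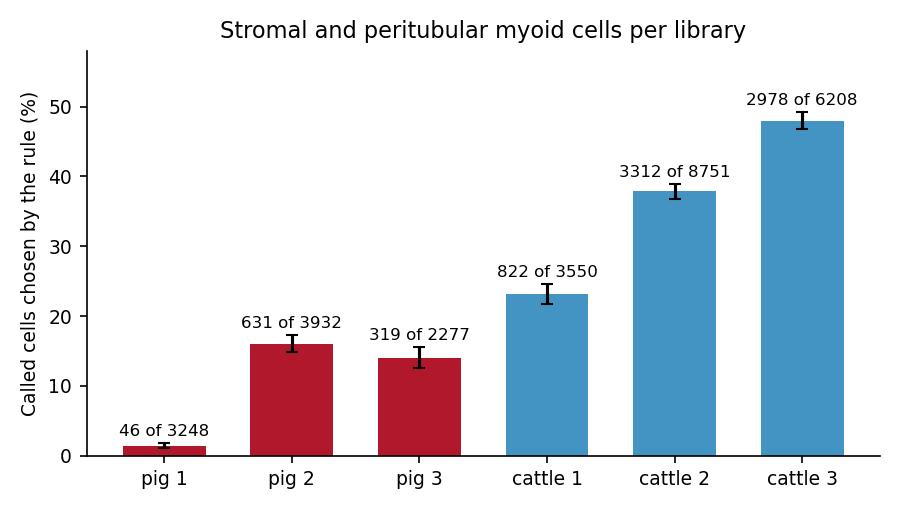
Percent of called cells chosen by the gene rule in each library (bars from 0), with exact 95% binomial intervals for counting error (black) and the numbers of cells above the bars. Red bars are the 3 pig libraries and blue bars the 3 cattle libraries. Pig 1 has the lowest share with 1.42%. At the cell minimum of each library all pig shares lie below the lowest cattle share of 23.2%. This order does not hold with a minimum of 500 UMIs, where pig 3 exceeds cattle 1.

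Of the 1203 called pig cells with enough keep genes, 207 were dropped, 5 in pig 1, 127 in pig 2 and 75 in pig 3. Leydig cell genes dropped 5, 38 and 23 of them, endothelial genes 0, 36 and 24, germ cell genes 0, 33 and 34, and Sertoli cell genes 0, 24 and 2, with some cells meeting more than 1 list. Just inside the threshold, 2, 57 and 17 members had exactly 4 keep UMIs in pig 1, 2 and 3. Just outside it, 3, 54 and 38 called cells had 3 keep UMIs over 3 genes. The called cells of pig 1 and pig 2 shared 20 barcodes, those of pig 1 and pig 3 shared 9 and those of pig 2 and pig 3 shared 9, and no barcode was a member in more than 1 library.

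The genes that chose the cells describe them and are given without a test. The marker genes TCF21, DCN and ACTA2 were high in all 3 pigs, and the fourth marker, MYH11, could not be checked. Levels are CPM, the UMIs of a gene scaled to 1000000 UMIs of the cells of an animal, in which 1 UMI in pig 1 already makes 21.4 CPM. TCF21 reached 342, 188 and 228 CPM in the members of pig 1, 2 and 3, and 4.39 ± 1.58 CPM (SD, n = 3) in all other called cells. DCN, which encodes the collagen-binding proteoglycan decorin, reached 4146, 1948 and 2259 CPM, and LUM, its relative lumican, 1731, 1363 and 1252 CPM. ACTA2, the smooth muscle actin gene, reached 1688, 2375 and 1981 CPM against 58.9 ± 39.2 CPM (SD, n = 3) in the other cells. TAGLN, which encodes the actin-binding protein transgelin, had 598, 929.7 and 512 CPM and CNN1, which encodes calponin, 42.7, 62.2 and 22.7 CPM. The other cells of no pig reached the level of the members for these genes. PDGFRA, a receptor for platelet-derived growth factor that often marks fibroblasts, was the weakest stromal gene of the rule, with 85.5, 8.06 and 14.5 CPM and a UMI in 6.52%, 3.49% and 8.15% of members. In the cattle cells chosen alike it reached 629.8 ± 225 CPM (SD, n = 3).

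**Figure D2:**
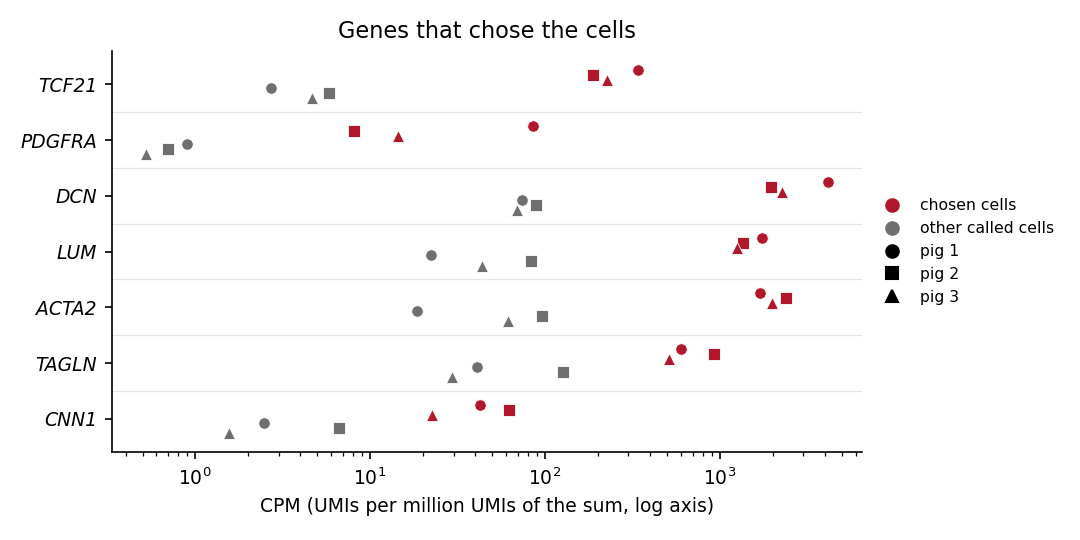
Level of each of the 7 measured keep genes, in CPM on a log axis, in the chosen cells (red) and all other called cells (grey) of pig 1 (circles), pig 2 (squares) and pig 3 (triangles). Each red symbol lies right of all grey symbols of its gene, which follows from the rule; for PDGFRA the red symbols lie lowest in pig 2 with 8.06 CPM.

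Detection of the keep genes in single cells is also fixed by the rule and is given as a description. DCN had a UMI in 95.7%, 90.0% and 95.3% of members in pig 1, 2 and 3. In cells gated by macrophage genes, which should lack DCN, it had a UMI in 2.94%, 14.5% and 16.9% of cells, at median depths of 888, 3360 and 5356 UMIs. ACTA2 had a UMI in 76.1%, 91.3% and 90.3% of members and in 1.47%, 17.1% and 15.5% of macrophage-gated cells. Cells gated by germ cell genes were deeper, with medians of 3906, 16504 and 18388.5 UMIs. In these DCN had a UMI in 14.3%, 70.5% and 57.9% of cells and ACTA2 in 8.57%, 61.2% and 48.6%. Some abundant Sertoli cell transcripts were present in the members near their level in the other cells. CLU, a Sertoli cell product, had 9275, 10574 and 1893 CPM in members and 10419.8, 13235 and 1904 CPM in the other cells, and the drop gene CLDN11, also of Sertoli cells, 235, 747 and 91.6 CPM against 199, 873 and 92.7 CPM. The drop genes FSHR and AMH had 0 UMIs in the members, which the rule favours. In the other cells of pig 1, 2 and 3 FSHR had 56, 215 and 15 UMIs and AMH 5, 12 and 1.

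The members were then compared with all other called cells of the same animals over the genes the rule did not use, to find what else these cells express. UMIs were summed per animal on each side, and 15246 genes were tested by the quasi-likelihood method of edgeR, with p-values adjusted after Benjamini and Hochberg and a threshold of 0.05. In the stromal and myoid cells 199 genes were higher, or 1.31% of those tested, and 0 were lower. These 199 include the 7 keep genes, which are no finding, and 192 others. At an unadjusted p under 0.05 there were 731 higher and 480 lower genes, and DESeq2 called 231 higher and 4 lower. Each animal gave both of its sums from 1 library. With the animal as a block 1052 genes were higher (6.9%) and 734 lower (4.81%), all 199 among them. Pig 1 decided the count without the block: without it 0 genes passed, with 673 higher and 278 lower at an unadjusted p under 0.05, while the block called 1198 higher and 703 lower genes without pig 1. Such p-values measure the spread between these 3 libraries, with the estimate for a gene pooled over all genes. Very small p-values of the block rest on this pooling and do not measure how well a difference repeats across pigs. A fold change is on the log2 scale, and its median over all genes was -0.19, or -0.09 when scaled by library size alone.

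Among the 12 genes with the largest rise, matrix and contractile genes of both cell kinds stood side by side. COL1A1 and COL1A2, the chains of collagen I, were higher by 4.71 (SE 0.47, edgeR adjusted p = 0.00232) and 4.61 (SE 0.64, adjusted p = 0.00706). COL1A1 had 2052, 1675 and 3346 CPM in members and 43.3, 83.1 and 119.9 CPM in the other cells. Biglycan, BGN, had 449, 218 and 403 CPM against 8.34, 11.03 and 15.6 CPM (log2 fold change 4.72). DPT encodes dermatopontin, a matrix protein that binds decorin, and MFAP2 a glycoprotein of microfibrils. MFAP2 had 321, 197 and 196 CPM in members against 8.79, 9.40 and 8.59 CPM, a difference of 4.49 (SE 0.34, adjusted p = 0.000647) and the smallest SE of the 12 genes. PTN, a secreted growth factor, had 1047, 503 and 1576 CPM against 36.5, 32.1 and 48.9 CPM (4.58). DES, the muscle intermediate filament desmin, had 107, 209 and 90.6 CPM against 1.35, 9.28 and 5.62 CPM (4.52, adjusted p = 0.00881). KCNMB1, the beta subunit of a smooth muscle potassium channel, rose most, by 5.04, from 1 UMI in pig 1, 108 in pig 2 and 64 in pig 3. NGFR, the low-affinity neurotrophin receptor, rose by 4.87 and LGI1, which encodes a secreted leucine-rich protein, by 4.87. TMEFF2 rose by 4.62 and TMEM119 by 4.28. In the members of pig 1, KCNMB1, NGFR and TMEM119 each had 1 UMI and LGI1 had 2. Their pig 1 levels therefore rest on 1 or 2 molecules. In all 12 genes each pig's members lay above the other cells of every pig, which their choice by size and direction favours. The same held for 5.42% of all genes tested.

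**Figure D3:**
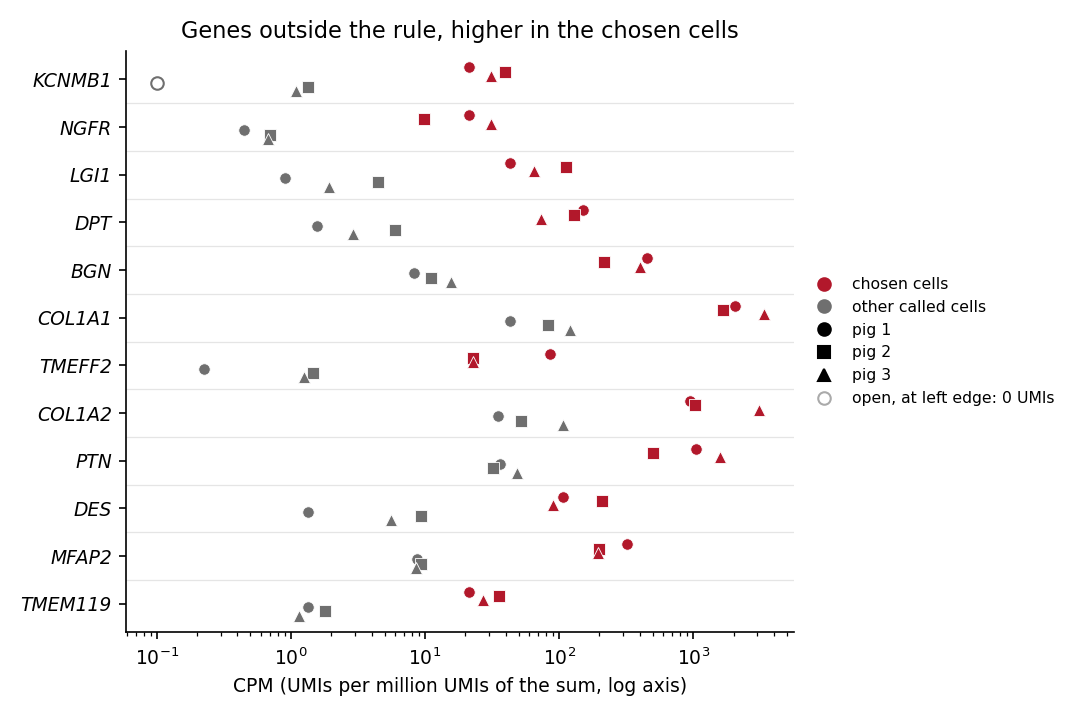
Level of the 12 genes outside the rule with the largest passed fold change, in CPM on a log axis, in the chosen cells (red) and all other called cells (grey) of the 3 pigs (symbols). No red symbol overlaps the grey symbols of its gene, though the red pig 1 symbols of KCNMB1, NGFR, TMEM119 and LGI1 rest on 1 or 2 UMIs. The open symbol at the left edge marks 0 UMIs of KCNMB1 in the other cells of pig 1 and has no place on the axis.

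Of 22 contractile genes beyond the rule that were tested, 6 rose without the block and 21 with it, 0 fell, and their median log2 fold change was 1.96. Caldesmon, CALD1, an actin-binding regulator of contraction, had 641, 417 and 356 CPM in members and 42.6, 79.1 and 45.7 CPM in the other cells (2.85, SE 0.37, adjusted p = 0.00528). LMOD1, which nucleates actin filaments in smooth muscle, rose by 4.02, ITGA8 by 3.76, ACTN1 by 2.11 and FLNA by 2.05. Tropomyosin 2, TPM2, had 577, 936 and 503 CPM against 48.2, 170 and 39.6 CPM, with an adjusted p of 0.0583 that the block moved to 2.07e-40. MYLK, the kinase that starts smooth muscle contraction, had 449, 661 and 571 CPM against 69.9, 178 and 44.8 CPM and passed with the block only (2.61, SE 0.22). MYL9, the light chain that MYLK phosphorylates, had 256, 199 and 115 CPM against 54.5, 54.6 and 30.8 CPM and also passed with the block only (1.82, SE 0.23). MYOCD, the smooth muscle co-activator, was at 0, 10 and 5 UMIs in the members and passed with the block only. SRF, its DNA-binding partner, was at 0, 10 and 2 UMIs and passed neither fit.

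Smooth muscle genes are classic targets of serum response factor, which binds the CArG box. The 250 bases before the gene start of MYL9 are shown because this contractile gene was higher in the members with the block and carries the box. They come from Sscrofa11.1 with the RefSeq annotation, chr17:39787915-39788164, lie outside annotated exons and read on the plus strand, which is the strand of the gene. Capitals mark the CArG box.
MYL9: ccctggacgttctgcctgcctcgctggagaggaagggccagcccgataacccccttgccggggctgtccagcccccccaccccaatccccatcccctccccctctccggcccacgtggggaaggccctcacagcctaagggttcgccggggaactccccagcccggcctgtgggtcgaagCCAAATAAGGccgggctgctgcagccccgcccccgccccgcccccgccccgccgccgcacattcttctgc
The box starts 70 bases before the gene start. On either strand, 257 of 19556 protein-coding genes had a CArG box in this window, or 1.31%. It was found in 1 of the 4 contractile keep genes and in 5 of 24 other contractile genes (20.8%), namely MYL9, SRF, TPM4, CNN2 and VCL. None of 8 interstitial collagen genes and none of the 4 stromal keep genes had it. At the share of 1.31% over all genes most lists this short would hold none, so these counts set no contrast with the contractile genes. ACTA2 and DES, both high in the members, had no box in this window, which says nothing of sites elsewhere. A match is a run of letters and not a site shown to be bound.

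Collagens of the interstitium had a median of 3.44 over 9 genes tested, the highest of the lists outside the rule. Of these 6 rose, and with the block 8 did. COL3A1, the collagen III chain, had 598, 770 and 1505 CPM in members and 89.5, 80.4 and 75.4 CPM in the other cells (3.44, SE 0.44, adjusted p = 0.00525). COL5A2 rose by 3.22 and COL6A3 by 4.20, while COL5A1 rose on only 9 UMIs in all members. Pig 3 was the highest pig for COL1A1, COL1A2 and COL3A1. Proteoglycan and elastic fibre genes rose in 11 of 22 cases, and in 18 with the block, with a median of 2.53. Among them the fibulin FBLN1 rose by 2.89, the fibrillin FBN1 by 2.92, MFAP4 by 4.04, osteoglycin, OGN, by 2.56 and MGP, an inhibitor of calcification, by 1.85. SPARC, which binds collagen, had 641, 795 and 469 CPM against 377, 594 and 185 CPM and passed with the block only.

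Of 11 basement membrane genes tested, 1 rose without the block and 7 with it, and the median was 1.26. The one that rose was LAMB1, a laminin chain, with 107, 92.3 and 85.3 CPM in members and 16.7, 17.4 and 7.396 CPM in the other cells (2.60, SE 0.43, adjusted p = 0.0176). COL15A1 had 577, 1000.03 and 644 CPM against 8.79, 240.5 and 199.5 CPM, and its adjusted p was 0.528 without the block. COL4A2, a chain of the collagen IV network, had 427, 425 and 701 CPM against 24.3, 103 and 103 CPM (2.64, adjusted p = 0.0521). Among enzymes that build or cut matrix and their inhibitors, 4 of 15 rose and with the block 13 did, with a median of 1.54. These 4 were the gelatinase MMP2 (2.59), the procollagen processing helper PCOLCE (2.90), the crosslinking enzyme LOXL1 (4.15) and the aggrecanase ADAMTS5 (3.39). The inhibitors TIMP1, TIMP2 and TIMP3 passed with the block only.

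**Figure D4:**
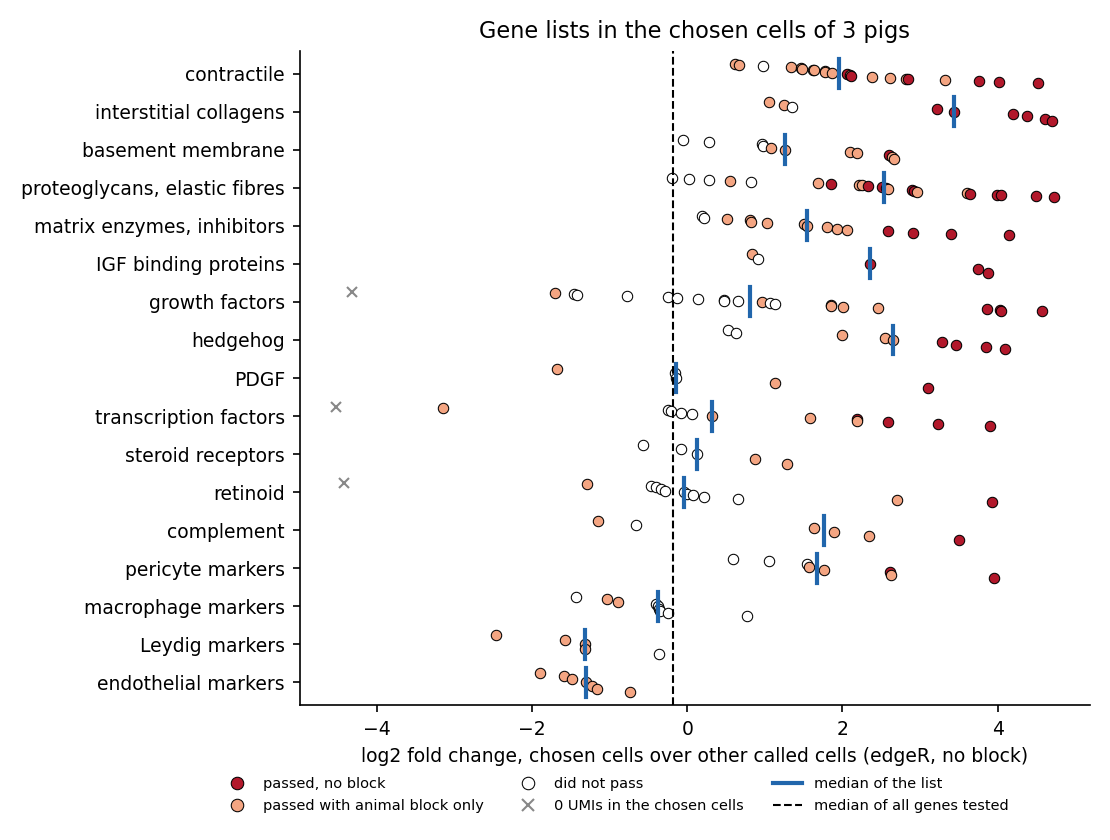
Log2 fold change of each tested gene of 17 lists in the chosen cells over all other called cells (edgeR without a block, 3 pigs), with the colour of a point giving the fit it passed. Bars mark list medians and the dashed line the median of all genes, -0.19; interstitial collagens have a median of 3.44, while crosses, with 0 UMIs in the chosen cells, stand for no measured fold.

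Several genes that receive the hedgehog signal rose in the stromal and myoid cells. Sertoli cells send this signal as Desert hedgehog, and cells outside the tubule receive it through the receptor PTCH1, which is also a target of the pathway. Of 9 genes tested, 4 rose, 7 rose with the block and 0 fell, with a median of 2.65. PTCH1 had 235, 237 and 283 CPM in members and 18.7, 27.1 and 25.1 CPM in the other cells (3.28, SE 0.33, adjusted p = 0.00232). GLI1, the transcription factor induced by the signal, had 21.4, 19.8 and 31.8 CPM against 2.70, 1.63 and 2.19 CPM (3.46). HHIP, which binds and holds back hedgehog ligands, had 42.7, 106 and 235 CPM against 4.96, 9.05 and 9.27 CPM (4.09). SMO, the signal transducer, passed with the block only, and GLI3 passed neither fit. PTCH1 had a UMI in 21.7%, 53.4% and 73.7% of members of pig 1, 2 and 3. It had one in 11.4%, 52.7% and 40.7% of the deeper germ-gated cells and in 1.47%, 2.63% and 8.83% of macrophage-gated cells. The part of depth in this was not tested.

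Retinoic acid drives germ cells into differentiation and meiosis, and CYP26B1 degrades it. CYP26B1 had 256, 447 and 332 CPM in members and 12.8, 35.0 and 14.9 CPM in the other cells (3.93, SE 0.50, adjusted p = 0.00525), with no overlap between the sides. It was the 1 gene of 13 retinoid genes that rose without the block, and the list median was -0.04. ALDH1A3, which makes retinoic acid, had 85.5, 126 and 208 CPM against 11.9, 38.1 and 13.1 CPM and passed with the block only (2.75, SE 0.26). CRABP1, a retinoic acid binding protein, had 42.7, 251 and 396 CPM against 755, 318 and 651 CPM and was lower with the block. CYP26A1, the related enzyme, had 0 UMIs in the members.

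A minority of growth factor genes passed, where 1.31% of all genes tested were higher without the block and 6.9% with it. Of 22 tested, 4 rose without the block, and with it 9 rose and 1, DLK1, fell, with a median of 0.81, or 0.96 with FGF10, which had 0 UMIs in members, at the bound that 3 counts over the group allow. PTN is described above, and the others were CXCL12 (4.03), IGF1 (4.04) and WNT2B (3.86). CXCL12, a chemokine for stem and immune cells, had 2158, 276 and 287 CPM in members against 32.9, 50.3 and 43.9 CPM, so that its level in pig 1 was far above that of the other pigs. GDNF and CSF1, secreted factors that act on spermatogonia, had 0, 9 and 4 UMIs and 2, 34 and 37 UMIs in the members, and both passed with the block only. Among IGF binding proteins 3 of 5 rose, 4 with the block, with a median of 2.36. IGFBP7 had 1090, 858 and 1131 CPM against 117, 209 and 208 CPM (2.36, SE 0.32, adjusted p = 0.00669), and IGFBP4 and IGFBP6 rose by 3.87 and 3.75.

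Transcription factors of stroma rose in 4 of 13 cases, and with the block 7 rose and 1, FOXF1, fell. Their median was 0.32, or 0.66 with genes at 0 UMIs in members set to the bound that 3 counts allow. NR2F2, an orphan nuclear receptor of interstitial progenitors, had 192, 217 and 339.8 CPM in members against 76.9, 35.8 and 41.6 CPM (2.18, SE 0.43, adjusted p = 0.0426). LHX9 (3.90), OSR1 (3.23) and EBF1 (2.59) also rose. WT1 and GATA4, factors shared with Sertoli cells, were at 42.7, 87.5 and 27.0 CPM and at 64.1, 83.5 and 39.0 CPM in members, and of these GATA4 passed with the block only. Of 5 steroid receptors 0 passed without the block and 2 with it. ESR1, an estrogen receptor gene, was among these, from 0, 8 and 6 UMIs in members (block 1.68, SE 0.55). Of 5 PDGF genes PDGFRB alone rose without the block (3.10), from 21.4, 39.2 and 59.8 CPM in members. With the block PDGFC rose as well and PDGFB, a ligand, fell. Complement genes rose in 1 of 6 cases, C1S (3.50). With the block 4 rose and CFD fell.

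No gene passed as lower without the block. The 8 genes described here were chosen after their values were seen, as those with the largest fall under the block and at least 20 UMIs in members. CLEC3B, ROBO4, FMO1, CA4, CAVIN2, APLNR, CCL21 and CD300LG had block log2 fold changes from -2.93 to -2.39. The levels of members and other cells overlapped across pigs for all 8, whereas 10.4% of all genes had members below the other cells without overlap. ROBO4, CAVIN2 and APLNR are genes of endothelial cells, and CCL21 is a chemokine of lymphatic endothelium. Endothelial markers beyond the rule fell with the block in 7 of 7 cases and Leydig cell markers in 4 of 5. Since the rule dropped cells with genes of these types, a lower level there is close to what the rule chose.

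Markers of other cells were present in the members at the following sums. The 9 macrophage markers summed to 214, 246 and 626 CPM in members and 296, 127 and 1187 CPM in the other cells, with C1QB the most abundant. None of them passed as higher in either fit, and AIF1 and MRC1 fell with the block. At least 2 of 5 macrophage genes had a UMI in 1, 10 and 41 members of pig 1, 2 and 3, which is 12.9% of the members in pig 3. Without these 52 members 203 genes were higher in place of 199. Of 8 markers of pericytes and vascular muscle, NOTCH3 (2.62) and CSPG4 (3.95) rose without the block and 5 rose with it; they summed to 64.1, 169 and 105 CPM against 7.66, 31.8 and 29.3 CPM, with RGS5 the most abundant. Lymphocyte markers summed to 192, 149 and 567 CPM against 169, 130 and 466 CPM, with CD52 the most abundant. Leydig cell markers summed to 2885, 1201 and 553 CPM against 9291, 2096 and 1551 CPM, with INSL3 the most abundant. Sertoli cell markers summed to 1239.5, 1491 and 229 CPM against 1399.8, 1855 and 249.7 CPM, most of it INHA, with AARD at 0 in members. Germ cell markers summed to 192, 187 and 286 CPM against 546, 297 and 573 CPM, with UCHL1 the most abundant and NANOS3 and DND1 at 0 in members, and 5 of 6 tested fell with the block. Endothelial markers summed to 64.1, 166 and 94.5 CPM against 33.1, 396 and 405 CPM, with EGFL7 the most abundant. Erythroid markers summed to 42.7, 9.89 and 694 CPM against 141, 11.2 and 369.9 CPM, nearly all HBB. Mesothelial markers reached 0, 0 and 0.964 CPM in members, with UPK3B and LRRN4 at 0, and the Schwann cell marker CDH19 was at 0 in members. The part of free RNA, of doublets and of rare cells in these sums was not tested.

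No gene of cell division or of the early response passed without the block. Of 8 cell division genes 0 rose without the block and 2, TOP2A and UBE2C, with it. TOP2A, which untangles replicated DNA, had 128, 62.2 and 303 CPM in members against 66.7, 43.3 and 104 CPM. Of 9 immediate early genes, which tissue digestion can induce, 0 rose without the block and FOS and EGR1 with it. FOS had 1389, 2830 and 1669 CPM in members and 536, 2717 and 940.4 CPM in the other cells.

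The members were next divided by the side of the rule they leaned to, since the keep genes are of both kinds. A member leaned to the contractile side when ACTA2, TAGLN and CNN1 together had more UMIs in it than TCF21, PDGFRA, DCN and LUM, and to the stromal side when they had fewer. Contractile-leaning cells numbered 6, 314 and 104 in pig 1, 2 and 3, stromal-leaning cells 40, 261 and 205, and ties 0, 56 and 10. In pig 1 most members leaned to the stromal side. Genes of both kinds had a UMI in 84.8%, 97.6% and 95.6% of members, a share that a rule asking for 3 genes itself favours. A lean is a range of counts and not a cell type, and how many cells lie near the border was not counted. With under 10 contractile-leaning cells, pig 1 was left out, which left 2 pigs on each side.

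Without the block, 0 of 11548 genes differed between the leans in either direction by edgeR, with 46 higher and 73 lower at an unadjusted p under 0.05, and DESeq2 called 1 gene. With the animal as a block 109 genes were higher in contractile-leaning cells (0.944% of those tested) and 125 lower (1.08%). The median over all genes was 0.01. The following genes were named after their values were seen, and their fold changes and adjusted p-values are those of the block. This fit leaves 1 residual degree of freedom and rests on 2 pigs. Its very small p-values rest on a spread pooled over genes and not on repetition across pigs.

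Of 22 contractile genes outside the rule, 10 were higher in the contractile lean and 0 lower with the block, with a median of 0.63. MYLK had 915 and 885 CPM in the contractile-leaning cells of pig 2 and pig 3 and 445 and 481 CPM in the stromal-leaning ones (adjusted p = 3.54e-22). TPM2 had 1272 and 821 CPM against 663 and 392 CPM (1.04, SE 0.09), and DES 304 and 148 CPM against 136 and 70.7 CPM (1.16, SE 0.15). KCNMB1 had 61.0 and 64.1 CPM against 23.3 and 17.7 CPM (1.63, SE 0.26, adjusted p = 1.34e-07). The sides overlapped across pigs for none of MYLK, TPM2, DES and KCNMB1, as was so for 9.7% of all genes in this direction. CYP26B1 was also higher in the contractile lean, with 552 and 421 CPM against 386 and 317 CPM (0.50, SE 0.11), and MGP by 0.63.

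Most interstitial collagens followed the stromal lean. Of 7 interstitial collagens 5 were lower in the contractile-leaning cells, with a median of -1.13. COL3A1 had 458 and 755 CPM in contractile-leaning and 1336 and 2099 CPM in stromal-leaning cells of pig 2 and pig 3 (-1.47, SE 0.09), and COL1A1 1502 and 1956 CPM against 2249 and 4490 CPM (-0.85). Of 19 growth factor genes 4 were lower and 0 higher with the block. PTN had 301 and 1010.1 CPM against 883 and 2082 CPM (-1.25), so that pig 3 exceeded pig 2 on both sides. IGFBP6 had 40.4 and 127 CPM against 131 and 516 CPM (-1.85), and C1S of the complement cascade 75.7 and 185 CPM against 199 and 431 CPM (-1.26). Larger differences were seen in some genes with few UMIs. PI15, a secreted peptidase inhibitor, had 3.67 and 22.9 CPM against 61.5 and 133 CPM (-3.02), with a UMI in 5 of 314 against 43 of 261 cells in pig 2 and in 9 of 104 against 70 of 205 cells in pig 3. In macrophage-gated cells of pig 2 and pig 3 it had a UMI in 0 of 76 and 7 of 419. In germ-gated cells it had one in 4 of 129 and 5 of 214. SFRP4, which binds WNT ligands, was lower by 3.13 in the contractile-leaning cells, the natriuretic peptide clearance receptor NPR3 by 2.94 and WNT2B by 2.66. Among 9 hedgehog genes 2 were lower, with HHIP one of them (-0.50), and 0 higher, and PTCH1 itself was at 264 and 229 CPM against 245 and 337 CPM and did not pass (adjusted p = 0.799).

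**Figure D5:**
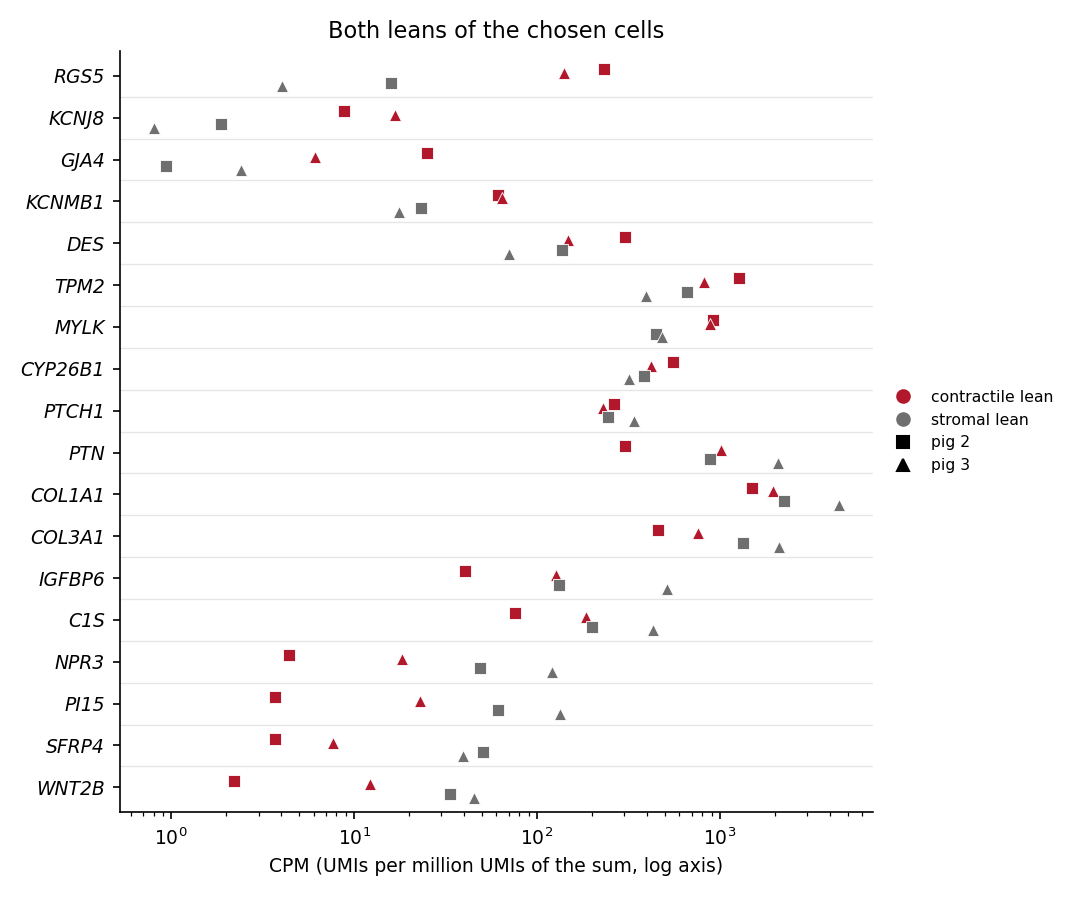
Level of 18 genes outside the rule, in CPM on a log axis, in contractile-leaning (red) and stromal-leaning (grey) cells of pig 2 (squares) and pig 3 (triangles). RGS5, KCNMB1, DES, TPM2 and MYLK lie to the right in the contractile lean of both pigs, and COL3A1, PTN, NPR3, PI15 and SFRP4 to the left of the same pig's stromal lean; PTCH1 lies to the right in pig 2 and to the left in pig 3.

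A small set of cells carried the genes with the largest rise in the contractile lean. RGS5, a regulator of G protein signalling that marks pericytes, had 232 and 140.4 CPM in contractile-leaning and 15.9 and 4.02 CPM in stromal-leaning cells (4.29, SE 0.24). KCNJ8, the potassium channel gene of pericytes, rose by 3.20, HIGD1B by 3.12 and GJA4, a gap junction gene of vascular muscle, by 3.10. Of 6 pericyte markers tested, RGS5, KCNJ8 and HIGD1B rose and 0 fell. Of the 431 RGS5 UMIs in all members, 410 lay in 15 cells with at least 5 each, 12 in pig 2 and 3 in pig 3. Of these 15 cells 14 leaned to the contractile side. They held 29 UMIs of GJA4, 20 of KCNJ8 and 27 of HIGD1B, against 15, 7 and 7 in the other 981 members. ACTA2 had a UMI in all 15 and TAGLN in 14, while DCN had a UMI in 5 and COL1A1 in 7. Without these cells the difference of GJA4 between the leans was 1.12 (adjusted p = 0.874), while that of RGS5, the gene that chose them, is not tested by leaving them out. KCNMB1 kept a rise of 1.72 (adjusted p = 2.28e-08) and DES one of 1.17 (adjusted p = 2.05e-12), and 103 genes were higher and 127 lower. They were not given a name, since the gene RGS5 chose them. RGS5 had a UMI in 21 of 631 and 11 of 319 members of pig 2 and pig 3 (3.33% and 3.45%), and in 3 of 76 and 9 of 419 macrophage-gated cells (3.95% and 2.15%). The share of members with a UMI was thus no higher than this background beyond counting error. Such a share says nothing of the few cells with many RGS5 UMIs. Those 12 and 3 cells held 321 and 89 RGS5 UMIs in pig 2 and pig 3.

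Blood and Sertoli cell transcripts also differed between the leans with the block. The macrophage genes C1QA, C1QB and C1QC were higher in the contractile-leaning cells, where macrophage markers summed to 238 and 973 CPM in pig 2 and pig 3 against 313 and 477 CPM in stromal-leaning cells. The direction therefore differed between the pigs. INHA had 1162 and 352 CPM against 956 and 112 CPM, and JCHAIN, a gene of antibody-secreting cells, 11.8 and 455 CPM against 7.46 and 157 CPM. Without members carrying macrophage genes, 73 genes were higher and 109 lower with the block. The part of these transcripts in the difference between leans was not tested.

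The cattle cells chosen by the same rule, with MYH11 and DAZL measured there and CDH5 not, were compared with the pig cells. Over 13961 gene symbols found in both tables, 11013 were tested, and 3479 were higher (31.6%) and 2767 lower (25.1%) in the pig cells. Species, age, breed, genome, gene models, the software and filtering of the files and 3 against 3 libraries of unequal depth cannot be told apart here. These are differences between the libraries as counted. Scaling by library size alone moved the median of all genes from 0.04 to 0.87 and the share of calls that were higher in pig from 55.7% to 76.6%. CPM in this comparison is counted over the shared symbols only.

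Proteoglycan and complement genes were lower in the pig cells, in 16 of 22 cases with 1 higher and in 6 of 7 cases with 0 higher, and library size alone gave 12 and 5 lower. Markers of other cells also differed. Endothelial markers were higher in the pig cells in 5 of 6 cases and lymphocyte markers lower in 5 of 7, with 1 higher. Leydig and germ cell markers were higher in 3 of 5 and 3 of 6 cases, with 1 lower in each list. Of all genes tested 31.6% were higher and 25.1% lower, and lists as short as these last do not stand apart from that. The part of such cells in the species differences was not tested. OGN had 204, 221 and 267 CPM in pig and 876, 3115 and 2648 CPM in cattle (-4.11, SE 0.48), and MGP 851, 626 and 449 CPM against 15201, 23908 and 20907 CPM (-5.92). C1S was lower by 3.84. COL1A1 had 3267, 2546 and 5156 CPM in pig and 2372, 2065 and 1691 CPM in cattle, without overlap, but did not pass under TMM scaling (0.01, SE 0.32) and passed as higher in pig under library size alone (0.85). COL3A1 was higher in pig (1.88), as were PDGFRB (3.75) and HHIP (1.95). Among retinoid genes 5 of 12 were higher and 3 lower, which is near the shares of all genes tested. CYP26B1 had 408, 679.5 and 512 CPM in pig and 0, 0.952 and 1.46 CPM in cattle, and ALDH1A3 136, 191 and 320 CPM against 0, 0.476 and 1.15 CPM. RBP4, which carries retinol, went the other way, with 34.0, 6.68 and 4.46 CPM in pig and 1037, 982 and 1177 CPM in cattle (-8.20). Among genes with at least 1 UMI in each library of the lower species, the largest folds by the naming rule were ZFP36L2, SSH1, MSI2, HSD11B1L, CAV2, KHSRP, BTG2 and SPAG8 higher in pig (6.27 to 8.08), and RBP4, ANXA6, H1F0, COPZ2, THBD, HNRNPUL1, PCBP1 and TNNI1 lower (-8.20 to -6.12). The rule also asked for groups without overlap, which 25.4% of all genes met as higher and 16.4% as lower.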

How the data were processed

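Testicular cells of 3 pigs and 3 cattle were captured with 10x Genomics v2 chemistry. Per the submitters' notes and methods, the authors used Cell Ranger 2.1.0 with Sscrofa11.1 and ARS-UCD1.2, although the headers of the pig matrices, and not those of cattle, name a later software version. They deposited raw UMI counts per gene and barcode in sparse matrices, whose lowest total is 500 UMIs for pig. A cell was a barcode whose total reached 10% of a high percentile (99) of totals, taken over the top 3000 barcodes. The study excluded doublets within each library before its own clustering. The matrices used here hold raw counts, and doublets were not removed for the main result. Those of pig list no barcode under 500 UMIs, while those of cattle go down to 0. Scrublet in scanpy 1.11.5 (Python 3.11.15, scipy 1.17.1) served as an alternative, with the highest scores left out at 0.8% per 1000 cells. Chosen cells held 46792, 2730931 and 2074490 UMIs in pig 1, 2 and 3 and all other called cells 4436444, 17127728 and 19200246, so pig 1 gives the least precise values.

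Counts were summed per animal and cell set, and tested with edgeR 4.0.16 (R 4.3.3, quasi-likelihood test, TMM, at least 10 counts over all sums, Benjamini-Hochberg at 0.05). The animal block was an alternative. Both sums of an animal come from 1 library, and their deviations from the set means correlated across genes with r of 0.176, 0.364 and 0.429 in pig 1, 2 and 3 for chosen against other cells (12937 genes) and 0.758 for the leans (8029 genes). DESeq2 1.42.0, scaling by library size alone, no filter on low counts, a minimum of 500 UMIs, at least 6 keep UMIs over 4 genes, other cells without the dropped ones, a lean by number of genes, and leaving out each animal were further alternatives. Fits without members carrying macrophage genes or RGS5 UMIs, fits combining the block with a left-out library, and the lean fit with pig 1 were added after seeing the data. The tests were tried on simulated data first. Genes named in the chosen against other cells are the 12 largest log2 fold changes past the threshold, outside the rule, in the same direction in all 3 pigs and with at least 50 UMIs in the chosen cells. The 8 genes named on each side against cattle had groups that did not overlap, at least 50 UMIs in the higher species and at least 1 UMI in each library of the lower species, which leaves out genes with larger folds such as C7 and CYP26B1. List genes are the most abundant members and, after their values were seen, those that passed or failed in a way the counts describe. The members, the lists and the tests were chosen with earlier results of these data known. Promoter windows and gene positions are from the RefSeq annotation of Sscrofa11.1, and figures were drawn with matplotlib 3.10.9. Some genes and sequences are not reported here.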

Additional observations from a re-analysis of the deposited data

Results flagged for a closer look

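The comparisons of the report left out 28491 pig barcodes between 500 UMIs and the cell minimum of their library, and 6970 of these (24.5%) met the keep and drop genes. Signal in barcodes outside the called cells brought this result here. The numbers were 84 of 2972 barcodes in pig 1 (2.83%), 4550 of 18988 in pig 2 (24.0%) and 2336 of 6531 in pig 3 (35.8%). With 500 UMIs as the minimum, 7966 pig barcodes were members, 130 in pig 1, 5181 in pig 2 and 2655 in pig 3. Whether these barcodes are small cells, damaged cells or droplets with free RNA was not tested.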

How the results depend on the processing

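Against other called cells, the animal as a replicate block gave 1052 higher and 734 lower genes in place of 199 and 0, and 1014 and 857 without members carrying macrophage genes. With the block and 1 pig left out, the range was 531 to 1198 higher and 155 to 703 lower, with 1198 and 703 without pig 1, 917 and 246 without pig 2 and 531 and 155 without pig 3. Without the block, leaving out 1 pig gave 0 to 250 higher and 0 to 18 lower genes, with 0 and 0 without pig 1, 250 and 14 without pig 2, and 167 and 18 without pig 3. Asking for at least 6 UMIs over 4 genes gave 317 higher and 26 lower genes. The other alternatives gave 203 to 287 higher genes, while lower genes numbered 4 with DESeq2, 2 with no filter on low counts, 7 with a minimum of 500 UMIs, 1 without the highest Scrublet scores and 1 without members carrying macrophage genes. Between the leans, the block gave 109 higher and 125 lower genes, 103 and 127 without members with at least 5 RGS5 UMIs, and 73 and 109 without members carrying macrophage genes. DESeq2 gave 1 higher gene and the fit with pig 1 gave 2 higher and 5 lower. Against cattle, 5030 genes were higher and 1533 lower with library size alone and 2507 and 1785 with DESeq2, in place of 3479 and 2767. COL15A1 turned to 0.84 under library size alone and PDGFA to -0.16 without pig 2, with a range of -0.16 to 3.51 over left-out libraries. The mean share of called cells in the pigs ranged from 7.56% to 18.3% over its alternatives. With a minimum of 500 UMIs the share of pig 3 exceeded that of cattle 1. No lean fit with a pig left out was run, because 1 pig leaves no residual degree of freedom. The depth of pig 1, with 46 members, limits what can be seen of genes under 21.4 CPM there, and the cause of the changed counts was not tested.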

Other observations

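Abundant transcripts of other cells were not evenly spread over the pigs. HBB, the beta globin gene of red blood cells, had 42.7, 9.15 and 689 CPM in the chosen cells of pig 1, 2 and 3 and 139, 10.5 and 367 CPM in the other called cells. INSL3, the hormone of Leydig cells, had 1539, 232 and 221 CPM in the chosen cells against 6426, 778 and 942 CPM, and 24168, 18663 and 17596 CPM in cells gated by Leydig cell genes. CST9L, a cystatin gene, had 4445, 11904 and 1208 CPM in the chosen cells and 5141, 14115 and 1268 CPM in the others. Within the chosen cells it exceeded every keep gene of the rule in pig 1 and pig 2, and not in pig 3.

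LGALS1, which encodes the sugar-binding protein galectin 1, had 7266, 5392 and 4510 CPM in the chosen cells and 2220, 3749 and 844 CPM in the other cells. It passed with the animal as a block (log2 fold change 1.37) and was more abundant than DCN in the chosen cells of all 3 pigs. CLEC3B, which encodes tetranectin, had 0, 47.2 and 23.1 CPM in the chosen cells against 6.09, 253 and 247 CPM, and FMO1, a monooxygenase gene, 64.1, 6.96 and 4.34 CPM against 289, 41.4 and 26.3 CPM. In pig 1 the 0 UMIs of CLEC3B show no difference, since 1 UMI there makes 21.4 CPM.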
